A study of Arabidopsis thaliana with 6 samples.

Results

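The MLO genes encode plant membrane proteins named after the barley locus Mildew resistance locus o, and 8 of the 38189 genes in the count tables are described here. They are MLO1 (gene-AT4G02600), MLO2 (gene-AT1G11310), MLO3 (gene-AT3G45290), MLO4 (gene-AT1G11000), MLO6 (gene-AT1G61560), MLO8 (gene-AT2G17480), MLO12 (gene-AT2G39200) and MLO15 (gene-AT2G44110). The 8 were chosen by a list of identifiers drawn up with values of this same contrast in view, so their differences between genotypes are descriptions, and p-values of the fit across all genes are quoted only as that fit's output. The Arabidopsis family has 15 genes, and the other 7 (MLO5, MLO7, MLO9, MLO10, MLO11, MLO13 and MLO14) are given beside them. The material was RNA of Arabidopsis thaliana in the Columbia background, either wild type (WT, n = 3 libraries) or the hb34 mutant (n = 3). All plants were 10 days old, had grown on half-strength Murashige and Skoog medium at 22 °C in days of 16 h light and 8 h dark, and carry the treatment label mock in both groups. The HB34 protein is a homeodomain transcription factor with a zinc finger, which the study's title links to the balance of growth and immunity through jasmonic acid. The sources used here do not state the kind of hb34 allele.

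MLO proteins span the plasma membrane several times, bind calmodulin near their carboxyl terminus and have been reported to act as calcium channels. Powdery mildew fungi need certain MLO proteins to enter epidermal cells: loss of MLO2 gives Arabidopsis partial resistance, and additional loss of MLO6 and MLO12 makes it nearly complete. Other family members act elsewhere in the plant. MLO4 and MLO11 shape root curling after touch, MLO7 (NORTIA) acts in the synergid cells that receive the pollen tube, and MLO5 and MLO9 help to steer pollen tubes. MLO proteins of reproductive cells work with receptor kinases related to FERONIA.

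The bases upstream of MLO12, MLO2 and MLO6 are shown because these 3 genes form the powdery mildew group and MLO12 among them differed most between the genotypes. Each line gives the 300 bases before the annotated start of the gene, read 5′ to 3′ on the strand of the gene from RefSeq TAIR10.1, with each W box core (TTGAC or its reverse complement GTCAA, the core that WRKY transcription factors bind) in capitals. The windows are chr2:16359944-16360243 for MLO12, chr1:3804234-3804533 for MLO2 and chr1:22712290-22712589 for MLO6, all on the minus strand.
MLO12: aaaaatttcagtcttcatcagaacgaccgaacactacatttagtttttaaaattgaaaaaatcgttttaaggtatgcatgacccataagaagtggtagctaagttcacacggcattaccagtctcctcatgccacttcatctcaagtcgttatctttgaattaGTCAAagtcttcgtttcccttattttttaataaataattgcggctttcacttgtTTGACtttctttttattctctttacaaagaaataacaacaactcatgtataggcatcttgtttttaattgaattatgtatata
MLO2: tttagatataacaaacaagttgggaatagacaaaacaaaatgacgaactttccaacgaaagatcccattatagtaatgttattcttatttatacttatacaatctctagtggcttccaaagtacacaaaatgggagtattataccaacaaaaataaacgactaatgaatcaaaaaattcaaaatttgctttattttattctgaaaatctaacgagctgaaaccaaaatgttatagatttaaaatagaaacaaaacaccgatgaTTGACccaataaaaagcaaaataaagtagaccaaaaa
MLO6: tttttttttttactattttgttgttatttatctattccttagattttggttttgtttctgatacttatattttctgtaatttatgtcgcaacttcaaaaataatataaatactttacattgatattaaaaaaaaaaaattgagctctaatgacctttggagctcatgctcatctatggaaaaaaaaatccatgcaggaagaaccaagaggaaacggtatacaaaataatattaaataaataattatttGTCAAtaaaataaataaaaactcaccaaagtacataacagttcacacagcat

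The MLO12 window held 2 W box cores, whose first bases lay 137 and 83 bases upstream of the gene. The MLO2 window held 1 core at 37 bases and the MLO6 window 1 core at 52 bases. Of the other members, MLO3, MLO8 and MLO15 had 1 core each, and MLO1 and MLO4 had 0. At least 1 core was present in 50.4% of the same windows of 27443 protein-coding genes and at least 2 in 17.9%, so both numbers are common. The letters TAATTA, a core that many homeodomain proteins bind, occurred in the windows of the members MLO1, MLO6 and MLO15. They were also in those of MLO7, MLO9 and MLO14 and in 32.7% of all windows, but not in those of MLO12 and MLO2. The G box CACGTG, bound by basic helix-loop-helix factors such as those of jasmonate signalling, was in 0 of the 15 family windows and in 7.09% of all. A match is a run of letters and not a binding site.

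The library totals lay between 17562497 and 19670468 counts, at which 3 counts in a library correspond to 0.153 to 0.171 CPM (counts scaled to a common library size after TMM normalization). HB34 itself was counted 1571, 1547 and 1821 times in the WT libraries but 19, 43 and 23 times in those of hb34, as the labels would have it. The labels call the tissue leaves and the extraction protocol seedlings. Leaf mesophyll markers were abundant in every library, with a summed level of 68940 to 80601 CPM over 6 genes in WT and 67796 to 77732 CPM in hb34. Of 12 root markers 8 had no count in any library, and the list had 1 to 36 counts per library, most of them from PYK10 in hb34 (5, 33 and 23 counts, against 1, 0 and 0 in WT). Pollen markers had 5 to 14 counts per library over 4 genes. The summed level of 3 guard cell markers was 25.9 to 34.8 CPM in WT and lower, 23.4 to 23.8 CPM, in every hb34 library. Their median log2 fold change was -0.29, and 0 of the 3 were called (FAMA -0.54, adjusted p = 0.149). The part of this difference in the values below was not tested. The first principal component of log2 CPM held 55.5% of the variance, and hb34 replicate 2 stood apart on it at 82.1, against 8.53 and 17.6 for hb34 replicates 1 and 3 and -41.2 to -25.8 for WT. Nothing in the labels says that replicates came from separate cultures, so p-values measure the spread between these libraries. In whole tissue, fewer cells that use a gene and less RNA per cell cannot be told apart.

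Compared per length of exon, MLO2 had the most transcript of the family in WT. Its level was 41.4 ± 2.66 TPM (counts per exon base, scaled to the same sum in every library, SD, n = 3). MLO1 followed at 27.2 ± 1.08 TPM, then MLO8 at 14.3 ± 1.34 TPM and MLO11 at 10.7 ± 0.586 TPM (SD, n = 3 each), and the ranges of these 4 genes did not overlap. MLO4 had 5.25 ± 0.513 TPM and MLO3 5.23 ± 0.616 TPM (SD, n = 3 each), with overlapping ranges. Below them came MLO10 at 2.74 ± 0.495 TPM, MLO13 at 1.80 ± 0.583 TPM and MLO7 at 1.17 ± 0.568 TPM (SD, n = 3 each), the last pair with overlapping ranges. The least of the measured genes were MLO12 at 0.402 ± 0.0932 TPM and MLO6 at 0.232 ± 0.229 TPM (SD, n = 3 each), which overlapped. MLO15, MLO5 and MLO14 had 0 counts in all 6 libraries, which allows at most 0.153 to 0.171 CPM in a library (counting error only), and MLO9 had 3 counts in all. The transcripts of MLO2 made up 37.4% of the family's summed WT level, which was 110.6 ± 4.33 TPM (SD, n = 3).

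The order in hb34 differed mainly in the place of MLO12. It stood at 4.78 ± 3.20 TPM (SD, n = 3), in a range that overlapped those of MLO4 above it and MLO10 below it, both of which it lay well under in WT. MLO2 (55.6 ± 15.6 TPM), MLO1 (35.6 ± 7.91 TPM) and MLO8 (19.9 ± 10.1 TPM, SD, n = 3 each) kept the first places. The range of MLO2 overlapped that of MLO1, and that of MLO1 overlapped MLO8, with hb34 replicate 2 the highest library for each. The summed level of the family was 144.6 ± 32.2 TPM (SD, n = 3), with MLO2 at 38.2% of it.

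**Figure D1:**
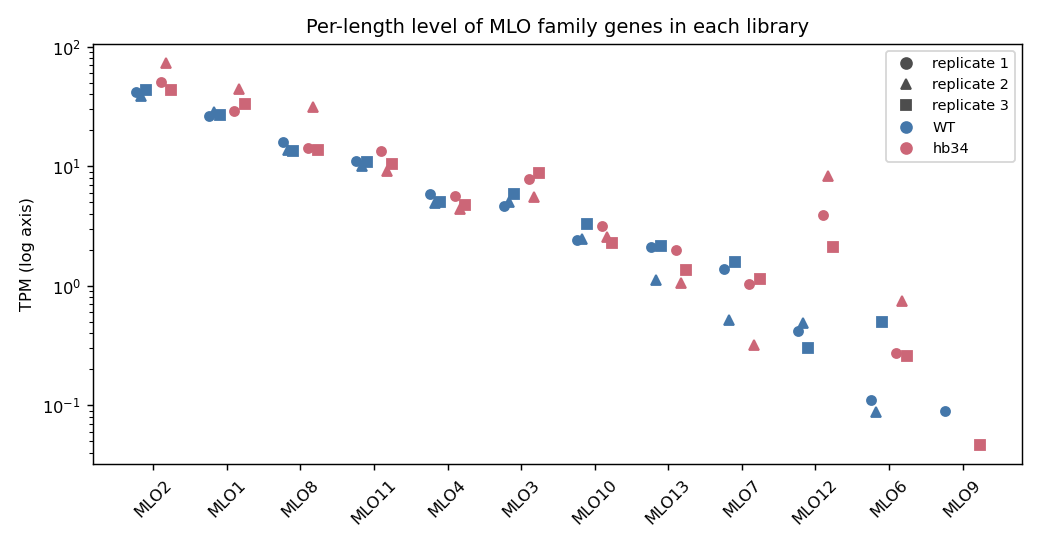
Level per exon length (TPM, log axis) of 12 MLO family genes in each of the 6 libraries, ordered by the WT mean; blue is WT, red is hb34 and the marker shape is the replicate. Values of 0 cannot be drawn on a log axis, so MLO5, MLO14 and MLO15 and 4 libraries of MLO9 are absent. MLO12 is the gene whose red points lie well above its blue ones.

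MLO12 was the member with the largest difference between genotypes. It lies on chromosome 2 at 16356041 to 16359943, minus strand, and is one of the mildew susceptibility genes. Its counts were 11, 12 and 8 in WT against 93, 212 and 54 in hb34. In CPM these were 0.583, 0.712 and 0.409 in WT and 4.99, 11.2 and 2.78 in hb34. Every hb34 library lay above every WT library, and the hb34 libraries differed among themselves by a wide margin, with replicate 2 highest and replicate 3 lowest. The group means were 0.568 ± 0.152 CPM and 6.32 ± 4.36 CPM (SD, n = 3 each), a ratio of 11.1. The log2 fold change, hb34 minus WT here and below, was 3.47 (SE 0.648, edgeR adjusted p = 0.0301), the 31st highest of all 17905 genes tested and the 9th among genes called higher.

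Over the whole genome 3.77% of tested genes were called higher in hb34 and 2.5% lower at an adjusted p under 0.05. Of the 6 members with enough counts to be tested, 1 was called higher (MLO12) and 0 lower, and since the members were selected on this contrast nothing is read from that count. The CPM of all 3 hb34 libraries lay above all 3 WT libraries for 17.8% of tested genes and below them for 17.5%. Among the 6 members that was so for MLO12, above, and for none below. The median log2 fold change of the 6 was 0.36, with 5 positive and 1 negative, beside a median of 0.012 over all tested genes. For the 10 tested genes of the whole family it was 0.12, with 5 positive and 5 negative. That family median was -0.039 without hb34 replicate 2. The MLO12 call was kept in 10 of 15 alternatives and did not rest on hb34 replicate 2, since 2.77 was the log2 fold change when that library was left out (adjusted p = 0.00757). The call was lost with limma-voom (adjusted p = 0.0628), with the replicate number as a block (3.36, adjusted p = 0.0760) and without WT replicate 1, 2 or 3 in turn (adjusted p = 0.138, 0.13 and 0.0689), while the log2 fold change stayed between 2.77 and 3.84 in all 15.

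**Figure D2:**
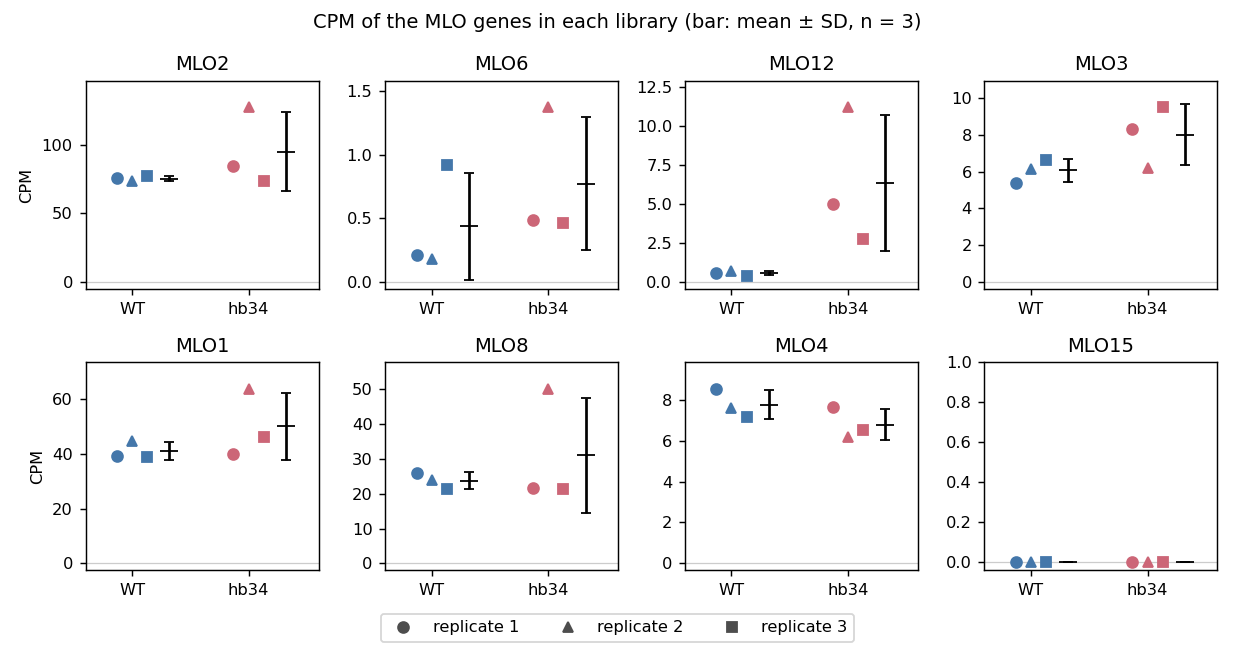
CPM of the 8 MLO genes in each library, with the mean ± SD (n = 3) beside the points; each panel has its own linear axis from 0. The hb34 points of MLO12 (4.99, 11.2 and 2.78 CPM) lie above all WT points, whereas for MLO2, MLO1 and MLO8 the triangle of hb34 replicate 2 alone lies well above the rest.

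MLO2, the susceptibility gene with the largest part in mildew entry, lies on chromosome 1 at 3800500 to 3804233, minus strand. Its CPM were 75.4, 73.2 and 77.0 in WT and 84.1, 127.3 and 73.3 in hb34. The 3 WT libraries lay close together and hb34 replicate 2 was far above all others, while hb34 replicate 3 fell inside the WT range. The log2 fold change was 0.34 (SE 0.201, adjusted p = 0.295), and without hb34 replicate 2 it was 0.07.

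MLO6 (chromosome 1, 22708468 to 22712289, minus strand), the closest relative of MLO2, was near the limit of detection. Its counts were 4, 3 and 18 in WT against 9, 26 and 9 in hb34, too few to enter the test. One library in each group was high, WT replicate 3 and hb34 replicate 2, and the groups overlapped. When no filter on low counts was applied, its log2 fold change was 0.77 (SE 0.718, adjusted p = 0.530).

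Within the trio the share of MLO12 differed between the genotypes. Of the summed TPM of MLO2, MLO6 and MLO12, MLO12 made up 0.989, 1.24 and 0.676% in WT and 7.10, 10.1 and 4.65% in hb34. Each hb34 share lay above each WT share. MLO2 remained the main transcript of the trio, at 98.5 ± 0.27% in WT and 92.0 ± 2.93% in hb34 (SD, n = 3 each). The trio's sum was 42.0 ± 2.76 TPM in WT and 60.8 ± 19.1 TPM in hb34 (SD, n = 3 each). In coding sequence MLO2 and MLO6 were 77% identical over aligned bases, MLO2 and MLO12 69.6%, and MLO6 and MLO12 67%, against 46.2 to 56.5% in the 36 pairs of a trio gene with another family gene. All exon windows of 50 bases of the 15 genes occurred once in the genome, so reads of that length without mismatches would not be shared between them.

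MLO3 (chromosome 3, 16617398 to 16621370, plus strand), whose mutants were reported to deposit callose without infection, had a pattern unlike the genes that were high in hb34 replicate 2. Its CPM were 5.41, 6.17 and 6.64 in WT and 8.32, 6.23 and 9.51 in hb34. Here hb34 replicate 2 was the lowest hb34 library and lay inside the WT range, and the other hb34 libraries were above it. The log2 fold change was 0.40 (SE 0.205, adjusted p = 0.230) with all libraries and 0.56 (adjusted p = 0.0961) without hb34 replicate 2.

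MLO1 and MLO8 shared the pattern of MLO2. MLO1 (chromosome 4, 1143888 to 1147562, plus strand) stood at 39.4, 44.8 and 38.8 CPM in WT, compared with 40.2, 63.9 and 46.4 CPM in hb34. MLO8 (chromosome 2, 7590295 to 7594195, minus strand) stood at 26.0, 24.0 and 21.4 CPM in WT, compared with 21.7, 50.2 and 21.4 CPM in hb34. In both, hb34 replicate 2 was the highest of the 6 libraries and the groups overlapped. The log2 fold change of MLO1 was 0.29 (SE 0.183, adjusted p = 0.317), and 0.08 without hb34 replicate 2. That of MLO8 was 0.39 (SE 0.330, adjusted p = 0.457) and turned to -0.14 without hb34 replicate 2.

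MLO4, the touch and root curling gene on chromosome 1 (3671756 to 3676133, minus strand), was the only tested member with a negative value. Its CPM were 8.54, 7.59 and 7.15 in WT and 7.62, 6.18 and 6.53 in hb34. The groups overlapped through hb34 replicate 1, and the log2 fold change was -0.20 (SE 0.167, adjusted p = 0.456). MLO15 (chromosome 2, 18245357 to 18248459, minus strand), whose nearest coding sequence among the family was that of MLO1 (60% identical), had no count in either genotype, so no difference could be measured at this depth.

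The 4 other family genes with enough counts all had small negative values. MLO7, the synergid gene, had a log2 fold change of -0.59 (SE 0.524), MLO13 one of -0.40 (SE 0.338), MLO10 one of -0.14 (SE 0.215) and MLO11, the partner of MLO4 in root curling, one of -0.06 (SE 0.156). None of the 4 was called, each had overlapping groups, and their median was -0.27. MLO7 had only 7 to 36 counts per library. The sign of MLO11 turned without hb34 replicate 2 (0.04) and that of MLO10 without WT replicate 3 (0.0088). MLO9 counts were 2, 0 and 0 in WT against 0, 0 and 1 in hb34.

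**Figure D3:**
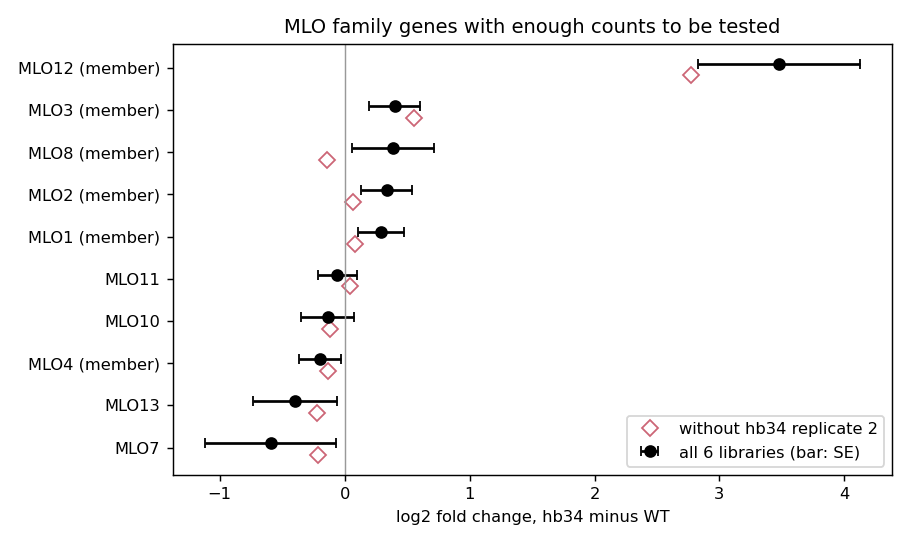
Log2 fold change (hb34 minus WT) of the 10 MLO family genes with enough counts to be tested, as black points with the standard error, and the same value without hb34 replicate 2 as open red diamonds; "member" marks genes among the 8 listed first. MLO12 lies apart at 3.47, and the values of MLO2, MLO1 and MLO8 come close to 0 or cross it in the diamonds.

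For 4 of the 6 tested members (MLO1, MLO2, MLO8 and MLO12) hb34 replicate 2 was the highest of all 6 libraries, as it was for 28.3% of all tested genes. Over the 10 tested family genes it was the lowest hb34 library for MLO3, MLO4, MLO7, MLO11 and MLO13. Against the WT mean of log2 CPM, hb34 replicates 1, 2 and 3 lay at 2.94, 4.09 and 2.12 for MLO12 and at 0.16, 0.76 and -0.04 for MLO2. The part that hb34 replicate 2 standing apart has in the values of MLO1, MLO2 and MLO8 was not tested beyond leaving it out.

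Indolic defense compounds help Arabidopsis to stop fungi that try to enter the epidermis, and the mildew resistance of mlo2 mutants was reported to need them. Of 11 listed genes of their synthesis and regulation 9 were tested, 5 were called higher and 0 lower, and the median log2 fold change was 1.49. Over all tested genes 3.77% were called higher and the median was 0.012. This list and those below were drawn up with earlier results of these data known, so nothing is read from their counts and medians. The 5 began with CYP79B3 (1.49, SE 0.245, adjusted p = 0.0207) and CYP79B2 (1.51, SE 0.252, adjusted p = 0.0218), which make indole-3-acetaldoxime from tryptophan. CYP83B1, the next enzyme towards indolic glucosinolates, had a log2 fold change of 1.18. CYP81F2 and IGMT1, which hydroxylate and methylate the indole ring of these glucosinolates, had 2.83 and 3.31. IGMT1 had a low level in WT (0.567 ± 0.267 CPM, SD, n = 3) and 4.94, 9.87 and 2.16 CPM in hb34 replicates 1, 2 and 3. In MLO12, IGMT1 and CYP81F2 replicate 3 was the lowest hb34 library, and in CYP79B2, CYP79B3 and CYP83B1 it was replicate 1, while replicate 2 was the highest in all 6. All 5 calls were kept without hb34 replicate 2. DESeq2 called 6 of the list higher and limma-voom 3, where they called 9.08% and 3.36% of all genes with an adjusted p. With the replicate number as a block all 5 calls were lost (adjusted p from 0.0836 to 0.117), and with robust dispersions that of CYP81F2 was (0.0765). None of the 5 passed without WT replicate 1 or 2, with adjusted p from 0.106 to 0.192. Of the 5, CYP79B2 alone passed without WT replicate 3, CYP83B1 was lost without hb34 replicate 3 (0.0598), and IGMT1 and CYP81F2 were lost without hb34 replicate 1 (0.0502 each). CYP79B2 and CYP79B3 are close copies, as are IGMT1 and IGMT2, so reads may be divided uncertainly between them. IGMT2 had 26, 38 and 52 counts in WT against 62, 27 and 23 in hb34 (log2 fold change -0.09, adjusted p = 0.906). Lower values were also present. MYB34, a regulator of indolic glucosinolate synthesis, had 80.3, 85.1 and 76.5 CPM in WT, while the hb34 libraries stood at 73.1, 39.9 and 58.2 CPM. Every hb34 library lay below every WT library, and its log2 fold change was -0.50 (adjusted p = 0.158). PAD3, the last enzyme of camalexin synthesis, had a log2 fold change of -1.72 with overlapping groups (adjusted p = 0.135).

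**Figure D4:**
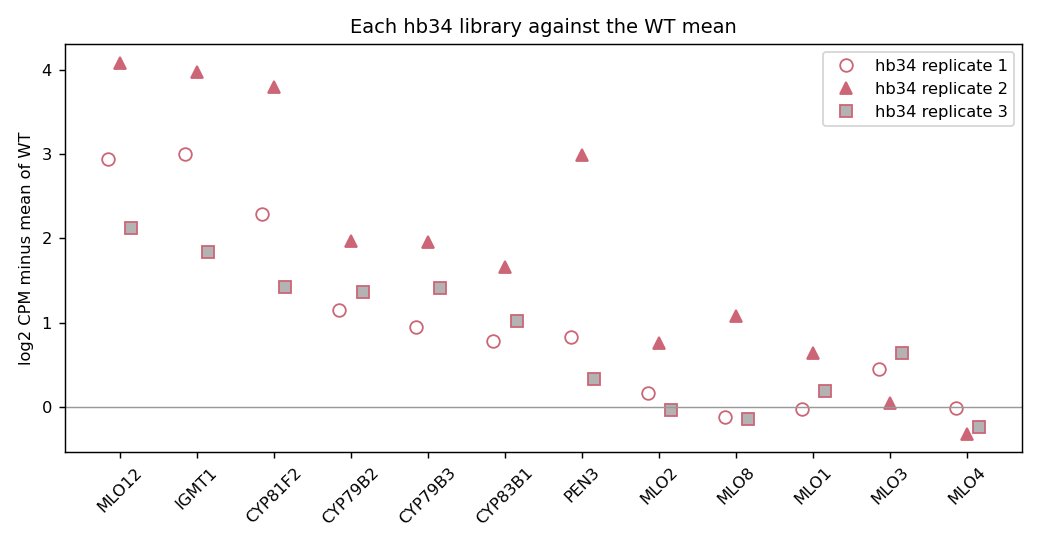
Log2 CPM of each hb34 library minus the WT mean, for the 6 tested MLO genes, 5 indolic defense genes and PEN3; the marker shows the replicate. Replicate 2 is the highest for every gene except MLO3 and MLO4. For MLO12 (2.94, 4.09 and 2.12) and the 5 indolic genes drawn, which are those called higher, all 3 libraries lie above 0. The same holds for PEN3 (0.82, 2.99 and 0.32) and MLO3 (0.45, 0.04 and 0.64), which were not called.

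Genes listed for pre-invasion defense, among them genes of membrane fusion proteins and of a transporter, did not pass the edgeR test. All 9 listed were tested, 0 were called with edgeR, 1 higher and 1 lower with DESeq2 and 0 with limma-voom, and the median was 0.54. An unadjusted p under 0.05 was found for 4 of the 9 and for 29.7% of all tested genes. Over all genes DESeq2 called 9.08% higher and 5.56% lower, and limma-voom 3.36% and 2.33%. For 8 of the 9 hb34 replicate 2 was the highest library, against 28.3% of all tested genes. VAMP721, a vesicle fusion protein gene, had a log2 fold change of -0.43 (adjusted p = 0.0640) with all hb34 libraries below all WT libraries, and SYP122, a syntaxin gene related to PEN1, had 2.00 (adjusted p = 0.0802). PEN3, a transporter gene linked to the export of indolic compounds, had 96.8 ± 18.2 CPM in WT (SD, n = 3), whereas the hb34 libraries stood at 169, 760 and 120 CPM (1.85 on the log2 scale, adjusted p = 0.113). PEN3 was 1 of 2 listed genes with every hb34 library above every WT library, beside 17.8% of all tested genes. Without hb34 replicate 2 the values of SYP122 and PEN3 were 1.19 and 0.58.

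Calmodulin, the calcium sensor that binds MLO proteins, is encoded by 7 genes, and all 7 had negative log2 fold changes with a median of -0.48. The values ran from -0.75 to -0.10, beside a median of 0.012 over all tested genes. With edgeR 0 of the 7 were called and 3 had an unadjusted p under 0.05, beside 29.7% of all tested genes. With DESeq2 2 were called lower, beside 5.56% of all genes, and with limma-voom 0. CAM5 stood at 111, 97.4 and 87.6 CPM in WT, compared with 59.5, 57.1 and 76.5 CPM in hb34 (-0.61 on the log2 scale, adjusted p = 0.0559). CAM7 had a log2 fold change of -0.75 (adjusted p = 0.0591). For both genes every hb34 library lay below every WT library. Several calmodulin genes are near-identical in coding sequence, so reads may be divided uncertainly among them.

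In the FERONIA group, the receptor kinases with their coreceptors and peptide ligands, 7 of 10 listed genes were tested, 0 were called higher and 1 lower (median -0.20). DESeq2 called 1 higher and 1 lower, and limma-voom 0 and 1. Over all genes edgeR called 3.77% higher and 2.5% lower, DESeq2 9.08% and 5.56%, and limma-voom 3.36% and 2.33%. The receptor kinase gene FER itself stood at 69.3, 60.8 and 83.7 CPM in WT, compared with 83.6, 188 and 105 CPM in hb34. It was the gene called higher by DESeq2, and with edgeR its log2 fold change was 0.82 (SE 0.292, adjusted p = 0.117) and 0.40 without hb34 replicate 2. RALF23, a peptide ligand of FERONIA that restrains immune receptor complexes, had 119.7 ± 12.8 CPM in WT (SD, n = 3) and 77.1, 73.7 and 89.0 CPM in hb34. Its log2 fold change was -0.58 (SE 0.129, adjusted p = 0.0444), and 8 of 15 alternatives kept the call. It was lost without each library in turn except WT replicate 3, with adjusted p of 0.177 and 0.175 without WT replicates 1 and 2 and of 0.0851, 0.0517 and 0.0618 without hb34 replicates 1, 2 and 3. The block (0.158) and scaling by library size only (0.0553) also lost it. The receptor kinase gene ANX2 and the coreceptor gene LRE, active with MLO proteins in pollen tubes and synergids, had 0 and 1 counts in all. ANX1, of the same list, had 37 to 89 counts per library and a log2 fold change of 0.38 (adjusted p = 0.490). BUPS1 had 0 to 12 counts per library and was not tested.

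Salicylate and EDS1 defense genes, on which the early senescence of mlo2 mutants was reported to depend in part, did not pass: of 7 listed 5 were tested and 0 called with edgeR, DESeq2 or limma-voom (0 at an unadjusted p under 0.05, beside the 29.7% of all genes, median 0.056). SAG101 had a log2 fold change of 0.41 (adjusted p = 0.180). EDS1 had 0.06 (adjusted p = 0.804), and its sign turned with upper quartile scaling. Of 4 other powdery mildew susceptibility loci, all tested, 0 were called by any of the 3 tools (2 at an unadjusted p under 0.05 with edgeR, median 0.40). The shares called among all genes were 3.77% higher and 2.5% lower with edgeR, 9.08% and 5.56% with DESeq2, and 3.36% and 2.33% with limma-voom. With 5 and 4 genes tested, 0 calls in each list lies near those shares. EDR2, a negative regulator of mildew-induced cell death, had 0.38 (adjusted p = 0.114), and PMR6, a pectate lyase-like gene, had 0.42 (adjusted p = 0.118). For these 2 of the 4 every hb34 library lay above every WT library, beside 17.8% of all tested genes, and 0 lay below.

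Genes next to MLO12 on chromosome 2 had smaller differences than MLO12 itself. Of the 10 nearest tested genes, 5 on either side, 1 was called higher (AT2G39260, log2 fold change 0.81), and the 10 values ran from -0.61 to 0.81. Around MLO2, 1 of 10 was called, lower (AT1G11330, -1.01). Around MLO3, 3 of 10 were called lower (AT3G45210 -1.09, AT3G45230 -0.99 and AT3G45430 -1.38), against a value of 0.40 for MLO3 itself. MLO8 and MLO1 each had 1 neighbour of 10 called higher (AT2G17510, 0.97, and AT4G02560, 0.88), and MLO4 had 0 of 10. Over all tested genes 3.77% were called higher and 2.5% lower. MLO12 shares 57 exon bases, 2.73% of its exon length, with AT2G39190 on the opposite strand. The counts of that gene were 798, 724 and 1231 in WT against 1377, 1679 and 1234 in hb34 (0.61 on the log2 scale, adjusted p = 0.0970), and hb34 replicate 3 lay level with WT replicate 3. MLO2 shares 352 exon bases with AT1G11303, which had 41 to 88 counts in a library. MLO3 and MLO6 overlap annotated genes with 0 counts. Since the strand setting of the counting is not given, the part of these shared bases in the MLO counts was not tested.

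The genes whose log2 CPM followed each trio gene most closely over the 6 libraries were ranked among 15462 genes by Pearson's r, as a description. The 6 libraries are of 2 genotypes, and hb34 replicate 2 stands apart, so a high r is common. With MLO12 4.45% of genes exceeded 0.9, with MLO2 3.98% and with MLO6 1.33%. For MLO12 the closest genes were ORP2B (0.994), AT2G04378, AT5G45350, RFI2 and BGLU18 (0.991). For MLO2 they were ACA.l (0.998), AT5G25930, AT5G04480, SPX4 and GTE2 (0.992). For MLO6 they were AT2G25790 (0.991), AT3G07210, AT4G26120, AT5G27250 and AT3G03990 (0.986). The MLO6 ranking rests on only 3 to 26 counts per library, too few for MLO6 to enter the test.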

How the data were processed

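Paired-end Illumina sequencing was run on RNA of 6 Arabidopsis libraries, 3 of WT and 3 of hb34, per the labels' protocols. Per the file headers, the deposited values are raw counts of each gene over its exons, 1 file per library, and they entered the tests unchanged. The submitters' processing notes list HISAT2 2.1.0, DESeq2 1.30.1 and TAIR10 and give no roles. Which program counted the reads, with which strand setting and rule for multiple matches, is not stated in the sources used here. Sample titles gave the groups.

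Low counts were removed with filterByExpr (minimum count 10, minimum total 15). Library sizes were scaled by TMM, and edgeR 4.0.16 in R 4.3.3 gave two-sided quasi-likelihood F tests with genotype as the only term. P-values were adjusted by Benjamini and Hochberg's method over all 17905 tested genes, with 0.05 as the threshold. CPM use the scaled library sizes, and log2 CPM a prior count of 2. A standard error is the unshrunk coefficient over the square root of F. TPM were computed from the counts and the exon lengths in the files. Coordinates and sequences are from RefSeq TAIR10.1, in which 38187 of 38189 genes had all their exons within the gene of the same identifier. Coding sequences were aligned with MAFFT 7.526. The fit was tested on simulated data. The alternatives were DESeq2 1.42.0, limma-voom (limma 3.58.1), other scalings, filters and dispersions, a replicate block and leaving out each library.

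The members and the gene lists were chosen with earlier results of these data known. The genes named are HB34, all MLO genes, from each list the genes past the threshold (up to 4 with the smallest p, or 2 where none passed), and for MLO2, MLO6 and MLO12 the 5 genes outside the family most alike in pattern. CYP81F2, IGMT2, PEN3, PAD3, MYB34, MYB51, FER, FAMA, PYK10, ANX1, ANX2, LRE and BUPS1 were named after their values were seen. So were the genes that share exon bases with MLO genes and the neighbours that passed.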

Additional observations from a re-analysis of the deposited data

How the results depend on the processing

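Of the 1122 genes called with all libraries, the count became 2661 with DESeq2, 5 with a replicate block, and 3 to 1356 when 1 library was left out (3 and 4 for WT replicates 1 and 2, 389 for hb34 replicate 3). Genes with an unadjusted p under 0.05 numbered 5321 with all libraries, 3347 and 3488 when WT replicates 1 and 2 were left out, and 3928 with the block. Of the tested MLO members 1 was called, 0 with limma-voom, 0 with the replicate block and 0 to 1 when a library was left out, 0 being the count for each WT library. The block gave MLO12 a log2 fold change of 3.36 (adjusted p = 0.076). The deviations of same-numbered libraries from their group means had r of -0.0972, -0.115 and -0.263. With 3 libraries in a group and hb34 replicate 2 standing apart, these values cannot show whether the numbers pair the libraries. Upper quartile scaling moved the median log2 fold change by -0.091 and the split of calls from 675 higher and 447 lower to 536 and 615. Leaving out 1 library gave -0.14 to 0.60 for MLO8, -0.26 to 0.0088 for MLO10, -0.20 to 0.043 for MLO11 and -0.0098 to 0.15 for EDS1, whose value was -0.038 with upper quartile scaling. MLO1, MLO2, MLO3, MLO4, MLO7 and MLO13 kept their sign in all 15 alternatives. Why calls moved was not tested, beyond fewer libraries entering some fits. Low counts limit MLO6, MLO7 and, in WT, MLO12.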
